A study of Mus musculus with 4 samples.

Results

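The chaperonin CCT (also called TRiC) and the cytosolic heat shock proteins HSP90 and HSC70 are the main folding machines of the cytosol, and their mRNAs were examined in fetal oocytes whose mothers had received ND (normal diet) or HFD (high-fat diet). The genes were chosen by name: the 8 CCT subunits Tcp1, Cct2, Cct3, Cct4, Cct5, Cct6a, Cct7 and Cct8, together with Hsp90ab1 and Hspa8, which make 10 of the 55401 genes counted. The rule for membership uses the names alone, but the list was drawn up with earlier results of these data known. All fetuses were female, had ICR mothers that had eaten ND or HFD for 4 months and had been mated with ND males, and were taken at E18.5. The labels call the sorted cells primordial germ cells of the ovary, selected by flow cytometry with an antibody to SSEA-1. RNA was amplified with SMART-Seq2, a full-length method for small inputs, from 2 samples per diet, each of which pooled oocytes of several fetuses. Whether the pools of a diet came from separate litters is not stated, so the p-values below measure only the spread between these pools.

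CCT is built from 2 stacked rings, and each ring holds 1 copy of each of the 8 different subunits. It folds actin, tubulin and many WD-repeat proteins, among them activators of the anaphase-promoting complex, inside a chamber that opens and closes with ATP. Since every subunit has a fixed place in the ring, the subunits are needed in equal numbers as proteins. HSC70 (Hspa8), the constitutive cytosolic HSP70, binds short hydrophobic stretches of unfolded chains and hands clients on to CCT and to HSP90. HSP90 beta (Hsp90ab1), the constitutive cytosolic HSP90, completes the folding of kinases, steroid receptors and other late clients.

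The libraries held 5723605 to 8223255 counted reads, so that 3 counts corresponded to 0.365 to 0.524 CPM (read counts scaled to equal library totals). The 50 most abundant genes took 19.1% to 30.3% of the counts. Reads carry no molecular identifiers, so the intervals given below cover counting error only. As a measure of background, 1135 olfactory receptor genes were used, which are not expected in these cells, and a gene counted as above background when its reads per exon kilobase exceeded their percentile 99, which lay between 7.44 and 12.5 over the libraries, and when it had more than 3 reads. Of 14 germ cell markers, 9 to 11 were above this limit in each library, with summed levels of 2085 and 4511 CPM in ND and 4963 and 4716 CPM in HFD. The leading germ cell marker was the same in both ND libraries and differed between the HFD libraries. Dazl, an RNA-binding protein of germ cells, led in both ND libraries (1733 and 3770 CPM in ND, 453 and 8.56 CPM in HFD). The synaptonemal complex gene Sycp1 (4.38 and 6.14 CPM in ND, 1400 and 1394 CPM in HFD) and the oocyte transcription factor Nobox (1.70 and 6.40 CPM in ND, 1278 and 567 CPM in HFD) were higher in both HFD libraries, as was Figla (0.973 and 1.66 CPM in ND, 611 and 51.7 CPM in HFD), while Sohlh1 was high in HFD replicate 2 alone (1921 CPM, against 1.58 to 2.94 CPM elsewhere). Other germ cell markers split by replicate and not by diet. Sycp3 was high in replicate 1 of both diets (204.8 CPM in ND, 303 CPM in HFD) and low in replicate 2 (3.455 and 2.97 CPM). Stra8 was high in replicate 2 of both diets (636 CPM in ND, 664 CPM in HFD) and low in replicate 1 (4.62 and 1.24 CPM). Dazl and Sycp1 were above background in all 4 libraries, whereas the germ cell helicase Ddx4 was above it in 2 of 4 and Fut4, a fucosyltransferase that can make the SSEA-1 epitope, in none. Markers of other cell types were present and uneven. The 9 stromal markers summed to 2843 CPM in ND replicate 1, 69.0 in ND replicate 2, 2222 in HFD replicate 1 and 7700 in HFD replicate 2, with 3 to 6 of them above background and Col1a1 the most abundant by the mean over the libraries, and the 7 blood markers reached 1973 CPM in ND replicate 1 against 2.18 to 11.5 CPM elsewhere (Hbb-bs, the most abundant, had 7350 reads there and 0 to 2 elsewhere). The 11 pregranulosa markers summed to 18.6 to 1160 CPM (highest mean Amhr2), the 7 endothelial markers to 24.6 to 711.5 CPM (Kdr) and the 7 macrophage markers to 12.9 to 42.3 CPM (Ptprc). In pooled cells, fewer cells of a type and less RNA per cell cannot be told apart.

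Each CCT subunit varied strongly among the 4 libraries, and no library held all 8 at a like level. Tcp1, the alpha subunit that gave the complex its name, was measured at 953 and 121 CPM in ND and at 4.34 and 39.3 CPM in HFD. Its HFD values both lay below its ND values, and that of HFD replicate 1 (28 reads) was below background. Cct2, the beta subunit, had 10.7 and 17.3 CPM in ND and 647.7 and 2021 CPM in HFD. Here both ND libraries were low and both HFD libraries high, with 37.5-fold between the nearest libraries of the diets. Cct3, the gamma subunit, had 1481 and 711 CPM in ND and 349 and 11.9 CPM in HFD, and the value of HFD replicate 2 (68 reads) was below background. The HFD values were again the lower ones, but they lay 29.4-fold apart from each other.

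In the remaining 5 subunits the diets overlapped. Cct4, the delta subunit, had 1591 and 548 CPM in ND and 2.63 and 610.3 CPM in HFD. Cct5, the epsilon subunit, had 72.2 and 28.5 CPM in ND and 2.01 and 4450 CPM in HFD. Cct8, the theta subunit, had 414 and 28.7 CPM in ND and 3.41 and 707 CPM in HFD. All of these 3 were below background in HFD replicate 1 and highest or second highest in HFD replicate 2, so the HFD libraries lay 232-fold, 2210-fold and 208-fold apart. Cct6a, the zeta subunit, had 544.9 and 18.6 CPM in ND and 430.1 and 8.91 CPM in HFD, so that a high and a low library occurred in each diet. Cct7, the eta subunit, had 12.9 and 10.2 CPM in ND and 2.01 and 19.2 CPM in HFD. It was the one subunit that stayed under 100 CPM in every library. At the lowest level reached, 13 reads of Cct5 and 13 of Cct7 in HFD replicate 1, the 95% Clopper-Pearson interval ran from 1.07 to 3.44 CPM.

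**Figure D1:**
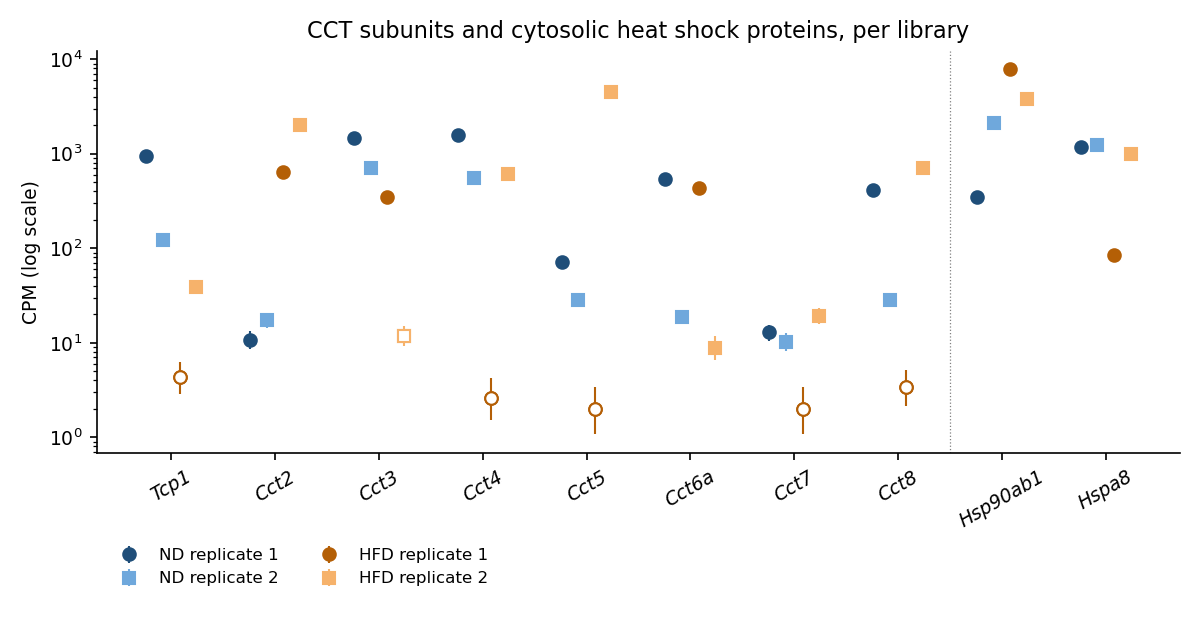
Level of each gene in each library in CPM on a log axis, with circles for replicate 1, squares for replicate 2, blue for ND, orange for HFD, and bars for the 95% Clopper-Pearson interval. Open symbols lie at or below background: Tcp1, Cct4, Cct5, Cct7 and Cct8 in HFD replicate 1 and Cct3 in HFD replicate 2.

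All 8 subunits were above background in both ND libraries, against 3 of 8 in HFD replicate 1 and 7 of 8 in HFD replicate 2. Cct2 and Cct6a were the 2 subunits above it in all 4 libraries. Over all genes counted, the share above background was 17.4% and 14.2% in ND, and 8.65% and 11.8% in HFD, so HFD replicate 1 also had the fewest genes above background as a whole. At 100 CPM or more the ND libraries held 5 and 3 subunits, the HFD libraries 3 and 4, and no subunit reached that level in all 4. Each subunit had its highest value in ND replicate 1 (4 subunits) or HFD replicate 2 (4 subunits), while 5 of 8 had their lowest value in HFD replicate 1.

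The 8 subunits summed to 5079 CPM (95% interval 5031 to 5128) in ND replicate 1, 1483 (1456 to 1510) in ND replicate 2, 1441 (1412 to 1471) in HFD replicate 1 and 7868 (7795 to 7940) in HFD replicate 2. The mean was 3281 ± 2543 CPM (SD, n = 2) in ND and 4654 ± 4544 CPM (SD, n = 2) in HFD, and the libraries of the diets overlapped. The sum was highest in HFD replicate 2 and next in ND replicate 1, the same order at the top as that of the stromal markers. Whether cells other than oocytes had a part in it was not tested.

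The balance among the subunits was read per length, as each subunit's share of the summed RPKM (CPM over the exon length in kilobases), where equal mRNA levels would give each subunit 12.5%. In ND replicate 1, Cct4 held 33.9%, Cct3 20.8%, Tcp1 17.0%, Cct6a 13.5% and Cct8 12%, and the other 3 held 0.170% to 2.34%. In ND replicate 2, Cct4 held 43.6% and Cct3 37.3%, followed by Tcp1 with 8.04%. In both ND libraries the same pair, Cct4 and Cct3, led. In HFD replicate 1, Cct2 held 58.8%, Cct6a 27.6% and Cct3 12.7%, and no other subunit exceeded 0.256%. In HFD replicate 2, Cct5 held 57.7%, Cct2 28.3%, Cct8 8.21% and Cct4 5.21%, and no other subunit exceeded 0.280%. Thus Cct2, which held 0.374% and 2.26% in the ND libraries, was first or second in both HFD libraries, and the leading subunit differed between the HFD libraries. Cct7 held 0.0690% to 0.505% and was the lowest subunit in 3 of the 4 libraries.

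The highest subunit stood 199-fold and 86.4-fold above the lowest on the RPKM scale in ND, and 853-fold and 863-fold above it in HFD. The makeup that a pair of libraries had in common, the sum over subunits of the smaller of both shares, was 70.4% for the ND pair and 29.3% for the HFD pair, and it lay between 14.6% and 27.4% for the 4 pairs of an ND with an HFD library. The Spearman correlation across the 8 subunits was 0.83 for the ND pair, -0.07 for the HFD pair and -0.38 to 0.02 between the diets. These are descriptions across 8 genes that share a library, not replicates. With the longest transcript length in place of the merged exon length, Cct3 led in both ND libraries (33.7% and 53.1%) and Cct4 came next, while Cct2 and Cct5 kept the lead in HFD replicates 1 and 2. The shared makeup and the correlations were computed with the merged exon length alone. For Cct3 that length is 6370 bases, against 1977 for its longest transcript. The order of the HFD pair and the pairs between the diets therefore holds for the merged exon length only.

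**Figure D2:**
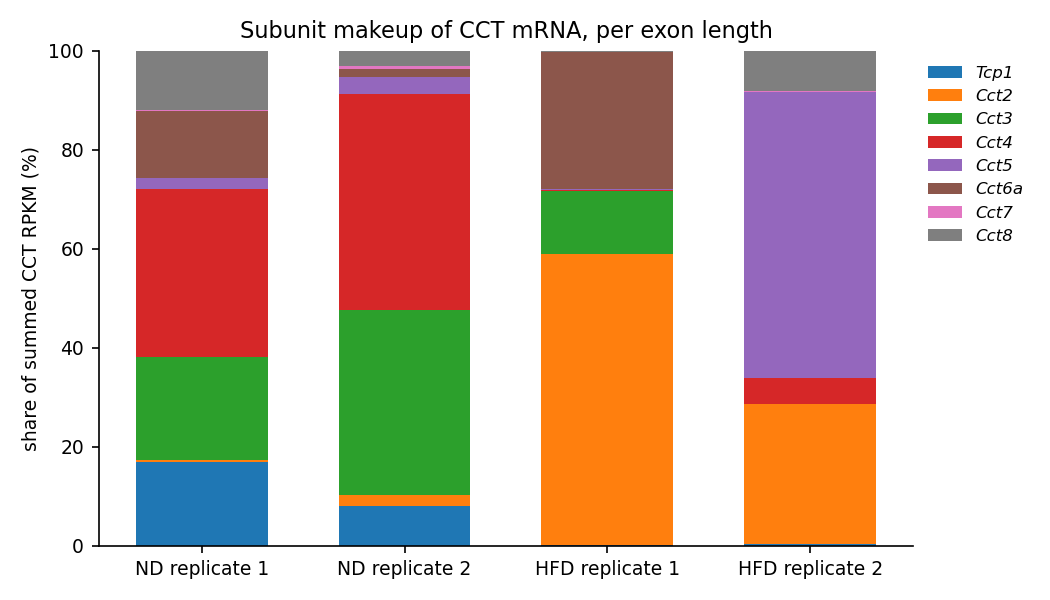
Share of each CCT subunit in the summed RPKM (%) in each library, as stacked bars that add to 100. Cct4 (red) and Cct3 (green) take 54.7% and 80.9% of the ND bars, Cct2 (orange) with Cct6a (brown) 86.4% of the bar of HFD replicate 1, and Cct5 (purple) with Cct2 86.0% of the bar of HFD replicate 2.

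Hsp90ab1 was among the most abundant mRNAs of the HFD libraries. It was measured at 347 and 2127 CPM in ND and at 7809 and 3836 CPM in HFD, and ranked 777 and 128 by CPM among all genes in ND, against 5 and 21 in HFD. The HFD libraries were thus above the ND libraries, with 1.80-fold between the nearest libraries. Hspa8 had 1181 and 1240 CPM in ND and 84.7 and 987 CPM in HFD. The ND libraries lay close together, 1.05-fold apart, and the HFD libraries 11.6-fold apart, with both below ND. Hspa8 and Hsp90ab1 were above background in all 4 libraries.

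Whether maternal HFD shifted these mRNAs was addressed with edgeR's quasi-likelihood test on all 19335 genes that passed the filter on low counts, which kept all 10 genes. After Benjamini-Hochberg adjustment, none of the 10 genes was called between the diets at an adjusted p under 0.05 and a fold change over 1.5, and 0% of all genes tested were called. At an unadjusted p under 0.05 the test gave 1 of the 10 genes, Cct2, against 11.2% of all genes tested (2171 genes). The log2 fold change of Cct2 was 5.87 without ND replicate 1 and 6.69 without ND replicate 2. It was 6.43 without HFD replicate 1 and 6.02 without HFD replicate 2. In such fits the lone library of a diet is taken to vary like those of the other diet. DESeq2 on all genes called 3 of the 10, Tcp1, Cct2 and Cct5, against 45.3% of the genes to which it gave an adjusted p. Cct2 was 14.0 ± 4.65 CPM (SD, n = 2) in ND and 1334 ± 971 CPM (SD, n = 2) in HFD. Its log2 fold change of HFD over ND was 6.30 with an SE of 2.12 in edgeR's quasi-likelihood test (unadjusted p = 0.0280, adjusted p = 0.406). Tcp1 was 537 ± 588.5 CPM (SD, n = 2) in ND and 21.8 ± 24.7 CPM (SD, n = 2) in HFD, with a log2 fold change of -5.03 ± 2.15 (SE) and an adjusted p of 0.406 by edgeR. Neither difference passed the adjusted threshold in edgeR, although the libraries of the diets did not overlap.

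The other subunits had wider errors relative to their fold changes. The log2 fold change was 4.88 ± 3.15 (SE) for Cct5, -2.38 ± 2.51 for Cct4 and -2.12 ± 2.37 for Cct3, with adjusted p of 0.547, 0.757 and 0.778 in edgeR. It was -0.58 ± 0.89 (SE) for Cct7, 0.17 ± 2.52 for Cct6a and 0.13 ± 2.38 for Cct8, with adjusted p of 0.861, 0.992 and 0.993 in edgeR. The last 3 differences were smaller than the spread between the HFD replicates, which was 9.55-fold for Cct7, 48.3-fold for Cct6a and 208-fold for Cct8. Without HFD replicate 2, the log2 fold change of Cct5 was -4.11 and that of Cct8 -5.47, and without HFD replicate 1 that of Cct6a was -5.65. For the heat shock proteins, edgeR gave a log2 fold change of 2.40 ± 2.31 (SE) for Hsp90ab1 (adjusted p = 0.726) and of -1.66 ± 1.94 (SE) for Hspa8 (adjusted p = 0.791). As a group, the 8 subunits split into 4 with a log2 fold change above 0 and 4 below, with a median of -0.22 against 0.03 for all genes tested.

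**Figure D3:**
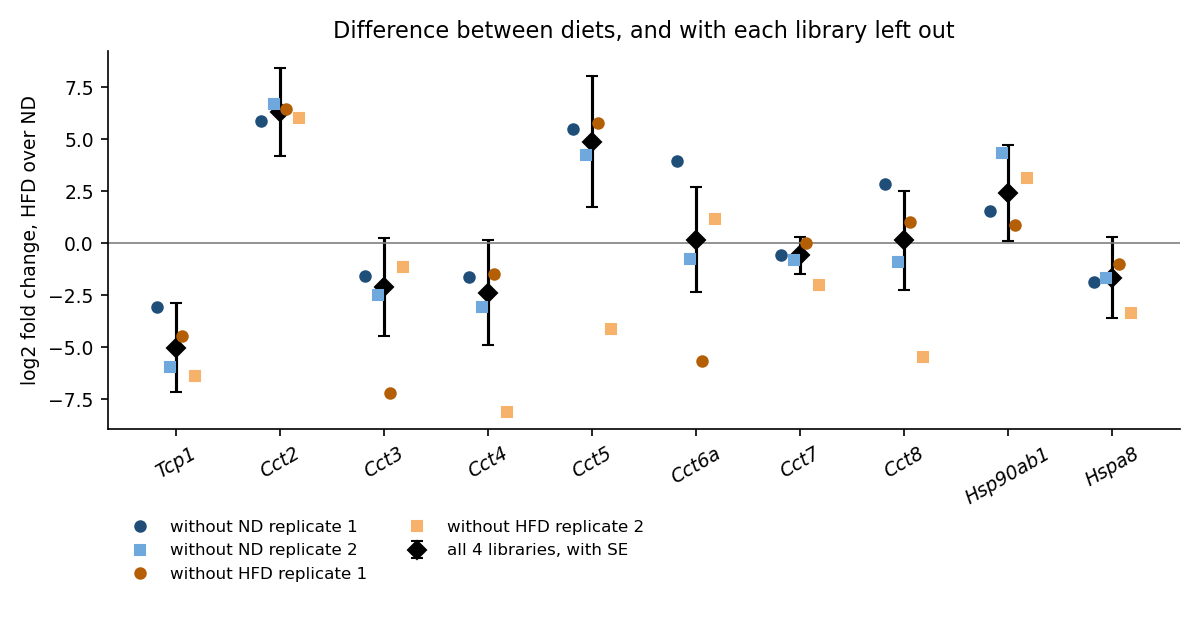
Log2 fold change of HFD over ND for each gene from edgeR, as black diamonds with the SE, and from fits that each omit 1 library, as coloured symbols. Cct2 (5.87 to 6.69) and Tcp1 (-6.40 to -3.08) keep their side of 0 with each library left out. So do Cct3 (-7.23 to -1.13), Cct4 (-8.13 to -1.51), Hsp90ab1 (0.86 to 4.34) and Hspa8 (-3.34 to -1.02). Cct5 (-4.11 to 5.76), Cct6a (-5.65 to 3.96), Cct8 (-5.47 to 2.85) and, barely, Cct7 (-2.01 to 0.01) cross it.

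On the CPM scale the diets did not overlap for 5 of the 10 genes, Cct2 and Hsp90ab1 with HFD above ND and Tcp1, Cct3 and Hspa8 with HFD below, against 27.3% of all genes tested. TMM-scaled totals correct for differences in RNA composition and had factors of 1.02 and 0.940 in ND and 0.692 and 1.51 in HFD. With them, Cct4 joined these genes with HFD below ND and the other 5 kept their direction. The share of all genes tested without overlap was not computed on that scale. The gap between the nearest libraries was 1.14-fold for Hsp90ab1 on that scale and 50.6-fold for Cct2. Replicates of a diet differed over 5-fold for 4 of the 10 genes in ND and for 8 of 10 in HFD. The matching shares of all genes tested were not computed, so this is not shown to be particular to the 10 genes.

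The spread of these mRNAs over the libraries was set beside that of other mRNAs. Among the 2615 genes tested that had a mean of at least 50 CPM, the median ratio of the highest to the lowest library was 189, and 69.4% of them exceeded 100-fold. Of the 10 genes, 9 had such a mean, 6 of them exceeded 100-fold, and their median was 189. Hspa8, with a ratio of 14.6, and Hsp90ab1, with 22.5, were the steadiest of the 9, and 4.02% and 5.47% of the 2615 genes had a smaller ratio. Cct5, with 2210, was the least steady, and 95.8% of the genes had a smaller ratio. Cct7, which lay below that level, had the smallest ratio of the 10 genes, 9.55.

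**Figure D4:**
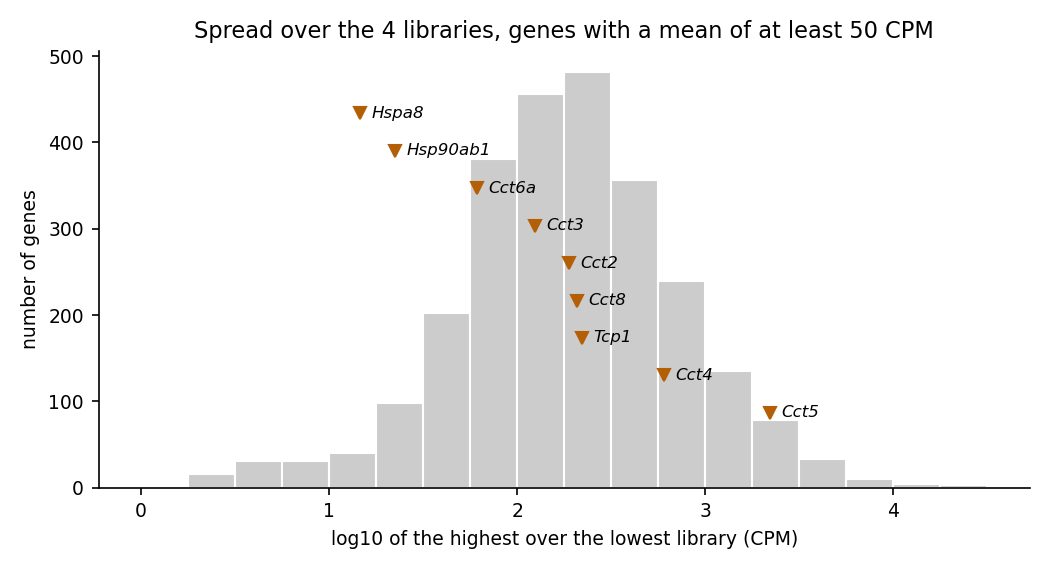
Histogram of the log10 ratio of the highest to the lowest library for genes tested with a mean of at least 50 CPM, with the 9 chaperone genes of that level as triangles (their height carries no value). The 7 subunits drawn run from Cct6a (61.2-fold) to Cct5 (2210-fold, in the upper tail), to the right of Hspa8 (14.6-fold) and Hsp90ab1 (22.5-fold), and 19 genes with a library at 0 are not drawn.

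Copies of these genes in the genome bear on how their reads could be counted. Processed pseudogenes are intronless copies of an mRNA inserted elsewhere, and reads that fit such a copy as well as the gene may be given to either or dropped. At 90% identity or more over at least 200 bases, 14 annotated pseudogenes matched 4 of the 10 genes: 10 for Hspa8, 2 for Hsp90ab1, and 1 each for Cct3 and Cct7. The other 6 genes had none. The counts on the 10 Hspa8 copies summed to 658 and 1167 reads in ND and to 40 and 417 reads in HFD, or 6.78% and 12% of the Hspa8 count in ND and 7.31% and 7.38% in HFD. Adding the copies to their genes did not reverse any of the 10 log2 fold changes.

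The copy with the most reads was Gm15459 (GRCm38 chr5:5781615-5783555, minus strand), with 568 and 1084 reads in ND and 27 and 136 in HFD. Like Hspa8 itself (chr9:40800984-40810087, plus strand), it was lowest in HFD replicate 1. Gm6210 (chr6:75296118-75298059, minus strand) had 9 and 8 reads in ND and 3 and 243 in HFD, so HFD replicate 2 stood alone there. Gm8355 (chr10:14745362-14747302, minus strand) had 52 and 21 reads in ND and 1 and 5 in HFD. Over the 1941 bases of the Hspa8 coding sequence, Gm15459 differed at 5 positions (G114A, C414T, C549T, G1222A and C1440T, counted from the A of the start codon, the base of Hspa8 first), Gm8355 at 25 and Gm6210 at 28. Of the 1792 windows of 150 bases in that sequence, 61.0% were identical in Gm15459, 27.1% in Gm8355 and 7.87% in Gm6210. The longest identical runs were 672, 359 and 290 bases. The stretch from base 15 to base 134 of the coding sequence is shown because it holds 1 of the differences of Gm15459 and 4 and 5 of those of Gm6210 and Gm8355. Capitals mark the differing bases, in Hspa8 those that differ in any of the copies.
Hspa8: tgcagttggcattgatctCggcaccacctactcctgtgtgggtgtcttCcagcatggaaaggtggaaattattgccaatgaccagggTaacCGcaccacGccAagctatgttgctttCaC
Gm15459: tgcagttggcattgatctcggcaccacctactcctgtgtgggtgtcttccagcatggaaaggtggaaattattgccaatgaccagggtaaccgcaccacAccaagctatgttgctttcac
Gm6210: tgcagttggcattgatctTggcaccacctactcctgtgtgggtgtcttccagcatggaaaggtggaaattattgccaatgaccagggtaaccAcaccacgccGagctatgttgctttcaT
Gm8355: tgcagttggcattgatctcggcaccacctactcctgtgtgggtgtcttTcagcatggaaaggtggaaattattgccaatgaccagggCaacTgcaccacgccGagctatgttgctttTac
How reads that align to several places were handled is not given in the sources used here.

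**Figure D5:**
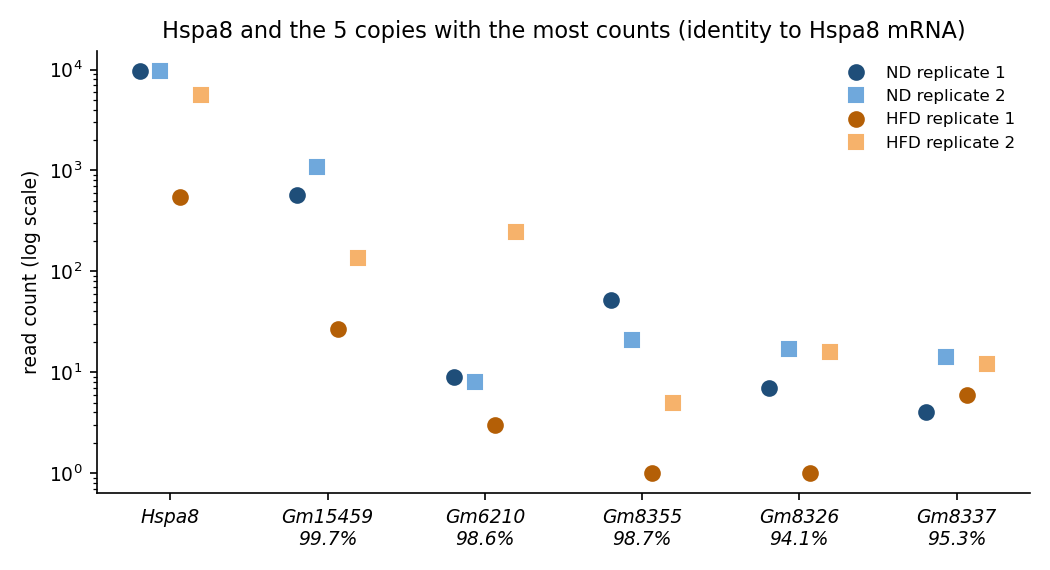
Read counts on a log axis for Hspa8 and its 5 pseudogene copies with the most counts, with the identity to the Hspa8 mRNA under each name; circles are replicate 1, squares replicate 2, blue ND and orange HFD, and a count of 0 is not drawn. Gm15459 lies at 2.41% to 11.2% of the Hspa8 count and shares with Hspa8 its lowest library, HFD replicate 1, and Gm6210 is high in HFD replicate 2 alone (243 reads).

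The copies of the other genes carried few reads. Cct3-ps1 on chromosome 4 (91.1% identical to Cct3) had 99 and 0 reads in ND and 6 and 6 in HFD, which came to 8.82% of the Cct3 count in HFD replicate 2. Gm5380 on chromosome X (93.5% identical to Cct7) had 1 to 4 reads per library, or 23.1% of the 13 Cct7 reads in HFD replicate 1. Gm6368 on chromosome X (90.8% identical to Hsp90ab1) had 7 to 26 reads per library, under 1% of the Hsp90ab1 count in each.

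The subunit genes lie on separate chromosomes, with Tcp1 on chr17:12915701-12925067, Cct2 on chr10:117051001-117063814, Cct3 on chr3:88297116-88321767, Cct4 on chr11:22990519-23003780, Cct5 on chr15:31590800-31601804, Cct6a on chr5:129786998-129846371, Cct7 on chr6:85451514-85468475 and Cct8 on chr16:87483326-87495873 (GRCm38). Hsp90ab1 lies on chr17:45567775-45573271, on the chromosome of Tcp1. Exons of genes on the opposite strand overlapped those of Tcp1 (Acat3, 11.4% of the Tcp1 exon length), Cct6a (Psph, 12.5%), Cct8 (Usp16, 6.2%) and Cct7 (Pradc1, 3.2%). The strand setting of the counting is not given in the sources used here, so reads in these overlaps cannot be told apart. Cct6a is annotated as a processed transcript, with no coding transcript, in the release used here.

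The 250 bases before the start of transcription were examined because the subunits are needed together. RefSeq (GRCm38.p6) gave such windows for 7 of the 10 genes, all but Cct4, Hsp90ab1 and Hspa8. On either strand, the GC box GGGCGG was present in 7 of these 7 windows, against 32.7% of the 32851 windows of all genes, and the CCAAT box in 4 of 7 (Tcp1, Cct3, Cct6a and Cct7), against 33.8%. The heat shock element GAANNTTC was found in 0 of 7, against 6.69%. Cct2 and Cct3 are shown, chosen after their values were seen, as subunits whose HFD libraries lay above and below ND, with GC boxes and CCAAT boxes in capitals on either strand. The Cct2 window is chr10:117063853-117064102 on the minus strand and holds 4 GC boxes, and the Cct3 window is chr3:88296885-88297134 on the plus strand and holds 1 GC box and 2 CCAAT boxes.
Cct2: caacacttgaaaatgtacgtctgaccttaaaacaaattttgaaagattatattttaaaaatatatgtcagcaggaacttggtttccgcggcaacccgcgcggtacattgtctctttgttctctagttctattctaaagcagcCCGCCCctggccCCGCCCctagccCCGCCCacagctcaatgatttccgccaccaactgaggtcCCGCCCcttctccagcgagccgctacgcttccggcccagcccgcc
Cct3: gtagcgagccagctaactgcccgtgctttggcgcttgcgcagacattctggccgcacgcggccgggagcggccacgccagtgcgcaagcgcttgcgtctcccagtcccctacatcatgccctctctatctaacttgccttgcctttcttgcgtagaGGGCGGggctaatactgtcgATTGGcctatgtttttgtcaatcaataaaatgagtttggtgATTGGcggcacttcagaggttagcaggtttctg
A match of letters is a description and does not show that a factor binds there.

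The mRNAs that work with these machines were taken as 9 lists of 89 other genes: relatives and partners of CCT, prefoldin, the HSP90 and HSP70 systems, J proteins and nucleotide exchange factors, the mitochondrial chaperonin, small heat shock proteins, heat shock factors, and the client families of actin and tubulin. Of these, 78 passed the filter and 0 were called by edgeR after Benjamini-Hochberg adjustment (also 0 in its legacy fit and in limma-voom, and 18 of the 52 with an adjusted p in DESeq2 on all genes, 8 with HFD above ND and 10 below, or 34.6% against 45.3% of all genes with an adjusted p). At an unadjusted p under 0.05 there were 5 with HFD above ND and 8 below. Together they made 16.7% of those tested, against 11.2% of all genes tested (4.82% with HFD above and 6.41% below). The median log2 fold change of the 78 genes was -0.20, against 0.03 for all genes tested. HFD and ND libraries did not overlap for 12 genes with HFD above and 10 with HFD below, 28.2% of the 78, against 27.3% of all genes tested.

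The 12 genes with both an unadjusted p under 0.05 and no overlap were 5 with HFD above ND and 7 with HFD below. Hspa4l, an HSP110-type exchange factor for HSP70, had 4.38 and 3.07 CPM in ND and 627 and 1043 CPM in HFD. Its log2 fold change was 7.72 ± 2.10 (SE), with an adjusted p of 0.406 by edgeR. Hsph1, the HSP110 exchange factor, had 8.51 and 4.48 CPM in ND and 568 and 46.5 CPM in HFD. Chordc1, an HSP90 co-chaperone, had 3.16 and 4.22 CPM in ND and 399 and 268.5 CPM in HFD. These were low in both ND libraries and higher in both HFD libraries, as was Cct2. Since genes were named here for diets that lay apart, this likeness follows from the choice. Hspa4l and Chordc1 were above background in 2 of the 4 libraries and Hsph1 in 3. Pfdn5, a subunit of the prefoldin complex that delivers actin and tubulin to CCT, had 2.19 and 3.07 CPM in ND and 2045 and 45.6 CPM in HFD, and Tubg1 (gamma tubulin) had 1.34 to 5.42 CPM over the 4 libraries.

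Below ND in both HFD libraries were Fkbp4, an HSP90 co-chaperone with 33.4 and 12.2 CPM in ND and 3.41 and 9.26 in HFD, and Hspa14, Dnajb6, Hspb6, Hspb8, Hsf5 and Actr2. Dnajb6, a J protein that works with HSP70, had 60.7 and 7.29 CPM in ND and 2.94 and 6.12 CPM in HFD. Actr2, an actin-related protein of the ARP2/3 complex, had 110.3 and 21.2 CPM in ND and 3.41 and 7.69 CPM in HFD. Hspb6, a small heat shock protein, had 214 and 2.43 CPM in ND and 0.465 and 0.175 CPM in HFD, so that 1 ND library stood far above the other 3. Hspa14, Hspb8 and Hsf5 had at most 4.73 CPM in any library. All of these had an adjusted p of 0.406 in edgeR, and of the 12 genes 7 were above background in at least 2 libraries.

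The most abundant genes of each list were also uneven. Hsp90aa1, the inducible cytosolic HSP90 paralog of Hsp90ab1, had 1710 and 3702 CPM in ND and 1547 and 2560 CPM in HFD, with a log2 fold change of -0.51 ± 1.95 (SE) and an adjusted p of 0.959 by edgeR. It was steadier than Hsp90ab1, and its diets overlapped. Hspa5, the HSP70 of the endoplasmic reticulum, had 5.96 and 1411 CPM in ND and 2364 and 12.1 CPM in HFD, and Hspa9, that of mitochondria, had 815 and 2029 CPM in ND and 221 and 1699 CPM in HFD. Hspe1, the lid of the mitochondrial chaperonin, had 2655 and 38.0 CPM in ND and 1263 and 5.94 CPM in HFD. Its partner Hspd1, the ring subunit, had 157 and 6.27 CPM in ND and 1.70 and 9.96 CPM in HFD. These 2 subunits of the mitochondrial machine thus also failed to keep a fixed ratio over the libraries. Among the clients, Actb had 1922 and 2045 CPM in ND and 3749 and 5029 CPM in HFD, with both HFD libraries above ND (log2 fold change 1.11 ± 1.98 (SE), adjusted p = 0.886 by edgeR), and the tubulin Tubb5 had 1595 and 991 CPM in ND and 1496 and 186 CPM in HFD.

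Of the closer partners of CCT, Txndc9, a phosducin-like regulator that binds the complex, had 11.4 and 69.6 CPM in ND and 125.9 and 867 CPM in HFD, with both HFD libraries above ND (log2 fold change 3.16 ± 1.86 (SE), adjusted p = 0.4995 by edgeR). Its relative Pdcl3 stayed at 1.70 to 5.11 CPM in all 4 libraries. The prefoldin subunit Vbp1 had 781 and 1.92 CPM in ND and 17.2 and 2.45 CPM in HFD, so that it and Pfdn5 were each high in a different library. Hsp90b1, the HSP90 of the endoplasmic reticulum, ran from 8.19 CPM in ND replicate 2 to 1873 CPM in HFD replicate 2, and the HSP70-binding co-chaperone St13 from 33.4 CPM in HFD replicate 2 to 1639 CPM in ND replicate 1. Dnajb1, the main heat-inducible J protein of the cytosol, had 2.07 and 1995 CPM in ND and 0.929 and 5.59 CPM in HFD, high in 1 library alone. Among the regulators, Hsf2, a heat shock factor, had 109 and 51.3 CPM in ND and 555.5 and 46.1 CPM in HFD, and Hsbp1, which binds heat shock factor, had 316 and 5.63 CPM in ND and 20.6 and 2.79 CPM in HFD. Hspb11 had 1.08 to 7.55 CPM over the libraries. None of these passed the adjusted threshold in edgeR.

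Over the 4 libraries, the genes whose profile lay nearest to that of the summed CCT level were Rpl30, Gm10720 and Kalrn, with root mean square differences of 0.52, 0.57 and 0.57 on the centred log2 CPM scale, among 2651 named genes with a mean of at least 50 CPM, passed by the filter or not, the 10 genes and their copies left out. The subunits themselves lay at 0.72 (Cct7) to 3.32 (Cct3), and Hspa8 at 1.40 and Hsp90ab1 at 2.31. With 4 libraries such a likeness is a description only.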

How the data were processed

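Per the labels and the study's methods, the authors checked reads with FastQC, trimmed them with Trim Galore, mapped them to mm10 (HISAT2) and assigned them to genes (featureCounts). The annotation release, the strand setting and the handling of multiply aligned reads are not given in the sources used here. The deposited files hold raw counts, one library each, of whole reads per Ensembl gene without normalization. From them, CPM on the library total and RPKM on merged exon length were computed. GENCODE mouse release 21 (GRCm38) named 55141 of 55401 identifiers.

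The diets were compared in R 4.3.3 with edgeR 4.0.16 (quasi-likelihood test, legacy FALSE, TMM, filterByExpr, Benjamini-Hochberg). The study's methods use DESeq2, which was run here (version 1.42.0) as an alternative, as was limma 3.58.1 (voom). Standard errors were derived from the F statistic (absolute log2 fold change divided by its root). Other alternatives were RLE or library-size scaling, other filters, the legacy fit, a replicate block, added pseudogene counts and each library left out in turn.

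Copies were found with blastn 2.17.0 on annotated transcripts. Sequences came from GENCODE transcripts and RefSeq. The genes, lists, markers and the background measure were chosen with earlier results of these data known. The text names all 10 genes, list genes with an unadjusted p under 0.05 and no overlap of the diets, the 2 genes per list with the highest mean CPM, the leading pseudogene copy of each gene (others were added after their values were seen) and the 3 nearest profiles. Protein sequences were not used here, and the bisulfite, imaging and feeding experiments were not analysed here.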

Additional observations from a re-analysis of the deposited data

How the results depend on the processing

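The number of genes called between the diets was 0 in edgeR (2171 genes had an unadjusted p under 0.05), 34 in its legacy fit, 2539 in DESeq2 on all genes, 2102 in DESeq2 on the filterByExpr genes and 0 to 0 with each library left out. Of the 10 chaperone genes, 1 had an unadjusted p under 0.05 in edgeR. The number was 3 in DESeq2 on all genes (3182 of the 49005 genes with any reads had such a p) and 3 on the filterByExpr genes (3606 of 19335). It was 0 in edgeR without a filter (4031 of 49005), in limma-voom (750 of 19335) and in the legacy fit (1205 of 19335). Fits with a library left out leave 1 library alone in a diet and assume that it varies like the others. The number with a log2 fold change above 0 was 5, against 3 in limma-voom and 3 to 5 with each library left out.

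The differences between replicates 1 and 2 had a correlation of r = 0.017 between ND and HFD over 19335 genes. With 2 pools per diet, this cannot show whether the shared replicate numbers mark a pairing of the libraries. With a replicate block, edgeR called 0 genes and gave 0 of the 10 an unadjusted p under 0.05 (1482 of all 19335 genes). DESeq2 with the block called 1031 genes and gave 4 of the 10 such a p (1978 of the 49005 genes with any reads). In both, 3 of the 10 were above 0. Under the block, Cct6a was -0.75 in edgeR and -0.81 in DESeq2, and Cct8 -1.18 and -1.26.

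Cct6a also reversed to -0.37 with library size only, -0.07 with at least 10 counts in every sample and -0.34 in limma-voom, and with libraries left out it ran from -5.65 to 3.96 (-0.75 without ND replicate 2). Cct8 reversed to -1.61 in limma-voom and ran from -5.47 to 2.85 (-0.91 without ND replicate 2), Cct5 from -4.11 to 5.76, and Cct7 from -2.01 to 0.01. The cause was not tested. Library size only moved the median log2 fold change of all genes from 0.03 to 0.21. DESeq2 called Tcp1 and Cct2 in all 3 of its settings, with adjusted p of at most 0.0432 and 0.00475, Cct5 on all genes alone (0.0177) and Cct3 and Cct4 under the block alone (0.0338 and 0.0317). Over all genes it called 2539 on all genes, 2102 on the filterByExpr genes and 1031 under the block. The first number is 45.3% of the genes with an adjusted p, and the shares for the other settings were not computed. These calls are thus not shown to be particular to the chaperone genes. The share of Cct4 in ND replicate 2 moved from 43.6% to 32.6% with the longest transcript length. With 2 pools per diet, whether a difference was called depended on the tool, and the size that could be detected was not tested.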
